A study of Mus musculus with 20 samples.

Results

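The collagen genes of the mouse were taken as all protein-coding genes whose symbol is Col, a number, the letter a and a number, after the Ensembl identifiers of the count tables had been matched to GENCODE M21. 44 of the 55573 gene rows met this rule, and each of the 44 had at least 1 count in at least 1 of the 20 libraries. The libraries hold bulk RNA of blood-forming cells from the bone marrow of C57BL/6 mice aged 7 to 9 weeks, with 2 mice for each replicate number and 1000 to 8000 sorted cells for each library. Lineage-negative Sca-1+ c-Kit+ cells were sorted as haematopoietic stem cells (HSC, CD150+CD48-) or multipotent progenitors (MPP, CD150-CD48-), and each population was divided with an antibody against the leptin receptor (Lepr). This gave 4 groups of 5 libraries: Lepr+ HSC with its counterpart Lepr- HSC, and Lepr+ MPP with its counterpart Lepr- MPP. The labels name no transgene, mutation or treatment for any group, so Lepr status rests on surface staining of wild-type cells.

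Collagens are secreted or membrane-bound proteins in which chains wind into a triple helix. The fibrillar types form the cables of bone, tendon and loose connective tissue, type IV forms the sheet of basement membranes, and the smaller families decorate fibrils, link them to cells or build beaded and hexagonal networks. In bone marrow the best-known sources are bone-forming cells, perivascular stromal cells, which carry Lepr, and the cells of blood vessels. The 44 genes comprise 11 fibrillar chains, 9 fibril-associated collagens with interrupted helices (FACITs), 6 basement membrane chains, 6 beaded filament chains of type VI, 4 transmembrane collagens, 3 short-chain network collagens, 2 multiplexins, 1 anchoring fibril chain and 2 others.

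The libraries held 9532993 to 31589794 counts in genes. Levels are given as CPM, the count scaled to a common library size after adjustment by trimmed mean of M values (TMM), and levels of different genes are compared only per kb of annotated exon. 23 collagen genes passed the filter on low counts and were tested among 16509 genes with edgeR's quasi-likelihood test, with Benjamini-Hochberg adjustment and a threshold of 0.05. The other 21 did not pass and are given as counts. Because the replicate number stands for the same mice in all 4 groups, the test was repeated with the number as a block. Lepr RNA followed the sort in total but not in every library. It read 0.356, 0.514, 7.98, 0.0759 and 9.36 CPM in Lepr+ HSC libraries 1 to 5, against 0 to 0.165 CPM in Lepr- HSC, and 0.261, 27.1, 30.5, 38.8 and 19.7 CPM in Lepr+ MPP libraries 1 to 5, against 0 to 0.767 CPM in Lepr- MPP. Lepr+ MPP libraries 4 and 5 and Lepr+ HSC library 5 were taken as the 3 libraries that stand apart from their groups. No measure of this is given here. Lepr- HSC library 3, picked out for the most collagen values in the closing sections, was kept. Counts of called or separated collagen genes between Lepr+ and Lepr- cells are also given without those 3.

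**Figure D1:**
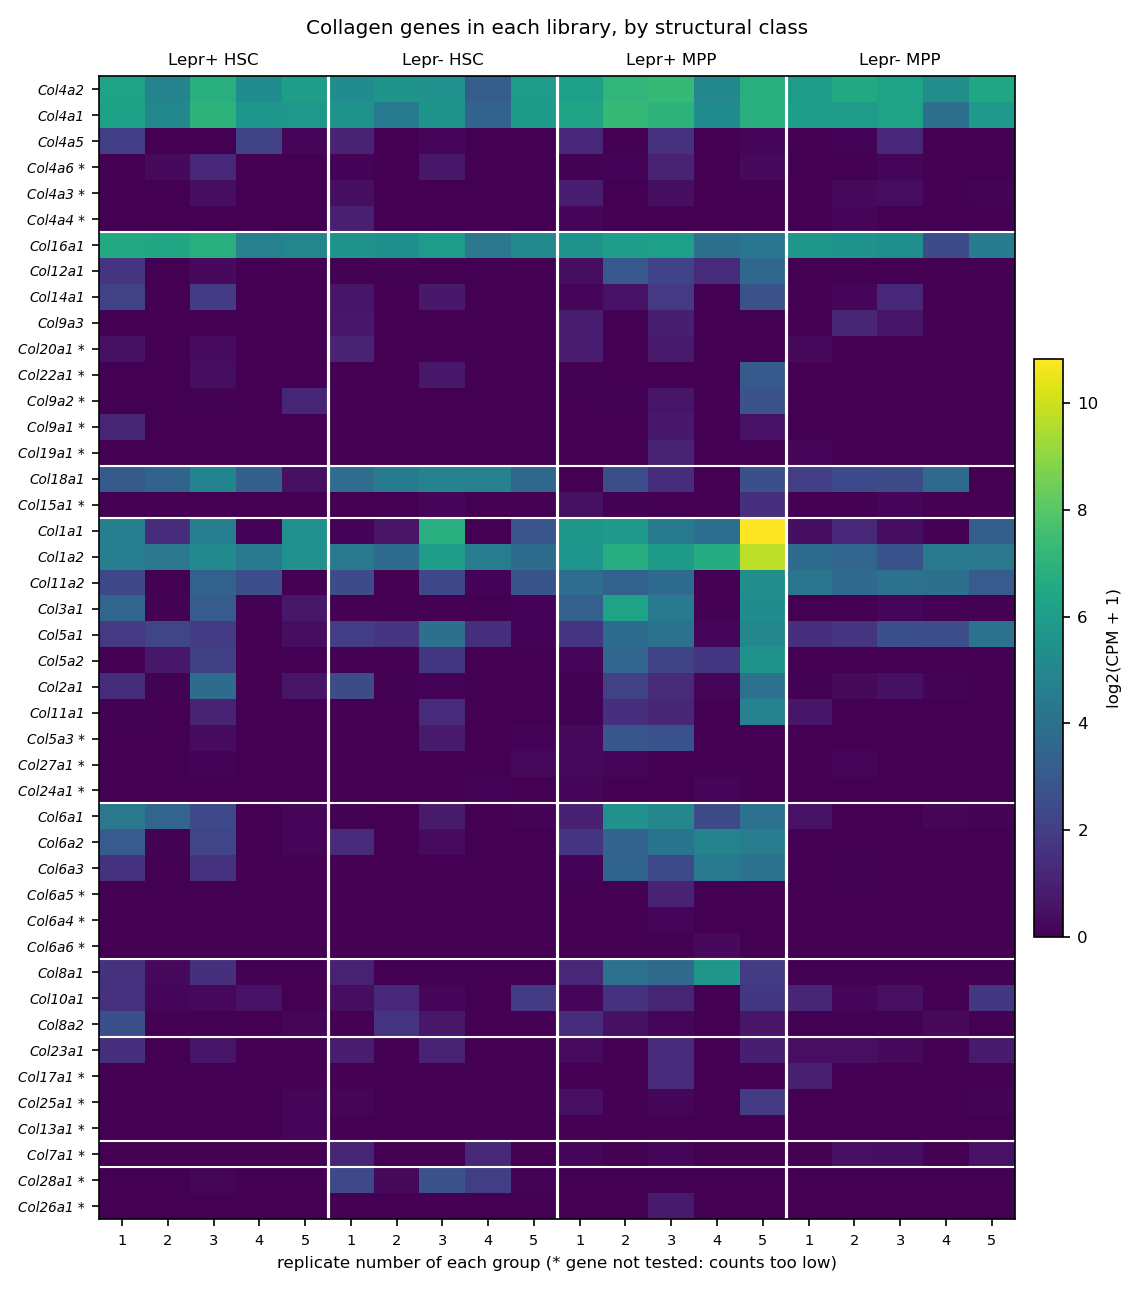
Level of each of the 44 collagen genes (rows, grouped by structural class and ordered by total counts) in each of the 20 libraries (columns, replicates 1 to 5 of each group) as log2(CPM + 1); an asterisk marks the 21 genes that were not tested. Col4a2, Col4a1, Col16a1 and Col1a2 have signal in all 20 libraries, and most other rows are brightest in Lepr+ MPP.

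A small core carried most collagen reads. Col4a2, Col4a1, Col1a1, Col16a1 and Col1a2 held 82.6% of the 160457 collagen counts, and only Col4a1, Col4a2, Col16a1 and Col1a2 had a count in all 20 libraries. Summed over the 44 genes, collagen reached 152 to 491 CPM in Lepr+ HSC, against 90.7 to 396 CPM in Lepr- HSC, and 312 to 3221 CPM in Lepr+ MPP, against 112 to 234 CPM in Lepr- MPP. The lowest Lepr+ MPP library thus lay above the highest Lepr- MPP library, while the HSC groups overlapped. The number of collagen genes with a count was 34 in Lepr+ HSC, 34 in Lepr- HSC, 42 in Lepr+ MPP and 29 in Lepr- MPP. Scaled to the depth of the shallowest library, 8.67 to 27.4 genes would be seen per library in Lepr+ HSC, 9.32 to 22.4 in Lepr- HSC, 14.6 to 35.05 in Lepr+ MPP and 9.45 to 18.4 in Lepr- MPP. In bulk RNA, fewer cells of a type and less RNA per cell cannot be told apart.

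The main basement membrane chains of type IV were expressed in every library. Col4a1 and Col4a2 encode the chains that assemble into the common type IV heterotrimer, and their genes lie head to head on chromosome 8 (GRCm38): Col4a1 on the minus strand at chr8:11198423-11312826 and Col4a2 on the plus strand at chr8:11312805-11449287, with 22 shared bases at their starts. The libraries are not stranded, so reads from those 22 bases cannot be assigned. Col4a1 read 70.2, 32.1, 126, 51.4 and 53.7 CPM in Lepr+ HSC libraries 1 to 5, against 46.7, 20.6, 47.9, 9.85 and 58.1 CPM in Lepr- HSC. In the MPPs it read 78.6, 151, 127, 37.2 and 110 CPM in Lepr+ libraries 1 to 5, against 66.1, 60.4, 76.4, 15.2 and 55.6 CPM in Lepr- libraries. The groups overlapped in both populations, and the Lepr+ member of a pair was higher in 4 of 5 HSC pairs and 5 of 5 MPP pairs. The log2 fold change, Lepr+ over Lepr-, was 0.87 ± 0.49 (SE) in HSC and 0.88 ± 0.48 in MPP, with edgeR adjusted p of 0.847 and 1. In HSC, Col4a2 averaged 63.3 ± 32.2 CPM in the Lepr+ libraries, against 39.9 ± 20.0 CPM in the Lepr- libraries, and in MPP it averaged 101 ± 50.8 CPM in the Lepr+ libraries, against 72.4 ± 21.6 CPM in the Lepr- libraries (SD, n = 5 each). The chains stayed near each other: the ratio of Col4a1 to Col4a2 per kb ran from 0.340 to 1.21 over the 20 libraries. Other type IV chains were scarce. Col4a5 reached at most 3.72 CPM, and Col4a3, Col4a4 and Col4a6 had 69, 36 and 112 counts in all and were not tested.

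Col16a1 joined them in every library. It encodes type XVI collagen, a FACIT that binds integrins and sits at the surface of fibrils, and it lies on chromosome 4 (chr4:130047840-130099283, plus strand). Its level was 94.3, 86.3, 114, 25.2 and 29.4 CPM in Lepr+ HSC libraries 1 to 5, against 44.6, 42.1, 63.1, 18.4 and 33.6 CPM in Lepr- HSC. In the MPPs the values were 46.1, 66.6, 68.0, 14.8 and 18.2 CPM in Lepr+ libraries, against 52.0, 45.2, 41.5, 4.81 and 20.6 CPM in Lepr- libraries. Libraries 4 and 5 were the lowest pair in each of the 4 groups, and every pair of groups overlapped. Per kb, Col16a1, Col4a2 and Col4a1 were the highest collagens in Lepr+ HSC, at means of 10.3, 9.56 and 8.93 CPM per kb, and the same 3 genes led in Lepr- HSC and in Lepr- MPP. In Lepr+ MPP, Col1a1 and Col1a2 had the highest means, at 60.2 and 18.9 CPM per kb. Without library 5 these means were 5.53 and 6.43 CPM per kb, below 14.97 for Col4a2, 13.2 for Col4a1 and 7.24 CPM per kb for Col16a1, and the medians over all 5 libraries also put Col4a2 and Col4a1 first. Together the 3 genes made up 61.9% to 76.1% of collagen CPM in Lepr+ HSC, 39.2% to 79.2% in Lepr- HSC, 7.37% to 60.5% in Lepr+ MPP and 53.1% to 85.8% in Lepr- MPP. The low end of the Lepr+ MPP range is library 5 and that of the Lepr- HSC range is library 3, which have the most type I collagen RNA of their groups. Lepr- HSC library 4, with a share of 40.1%, was low without any Col1a1.

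**Figure D2:**
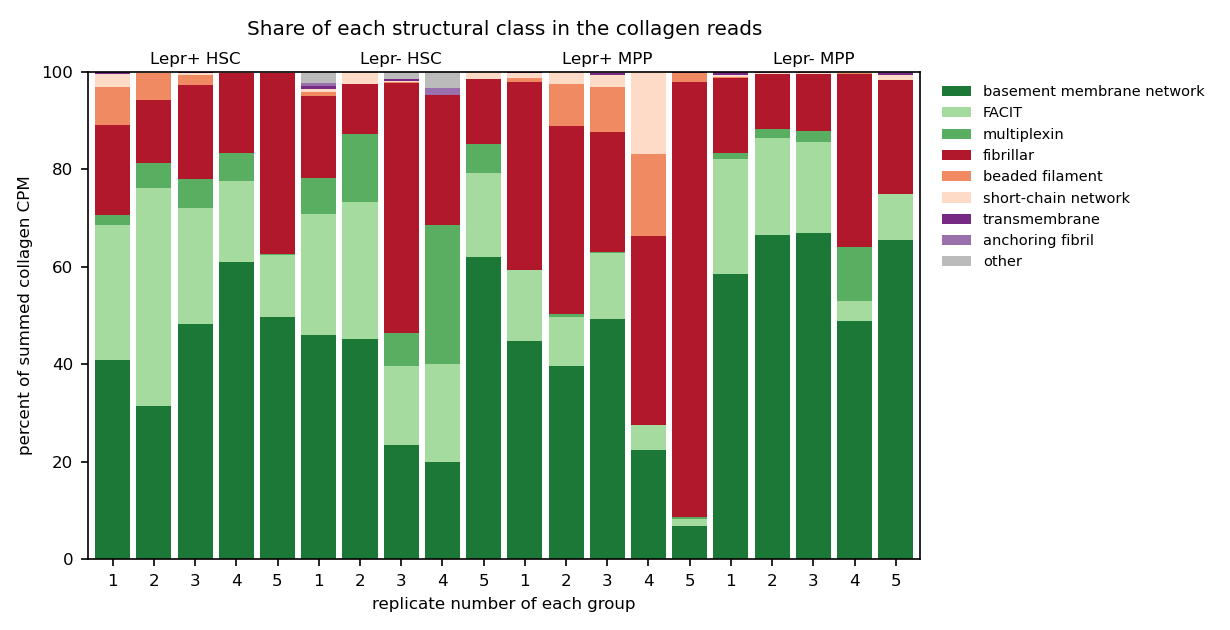
Share of each structural class in the summed collagen CPM (y axis, percent) of each library (x axis, replicates 1 to 5 of each group). The green classes (basement membrane, FACIT, multiplexin) fill most of the bar in most libraries, and the fibrillar share reaches 89.5% in Lepr+ MPP library 5 and 51.3% in Lepr- HSC library 3.

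Type I collagen, the main protein of bone and most connective tissue, is a heterotrimer of Col1a1 and Col1a2 chains, and these genes behaved unlike each other. Col1a2 (chr6:4504814-4541544, plus strand) was present everywhere. It read 24.6, 18.7, 33.9, 19.8 and 44.1 CPM in Lepr+ HSC libraries 1 to 5, against 19.5, 13.0, 66.7, 22.3 and 13.3 CPM in Lepr- HSC. In the MPPs it read 50.6, 106, 59.8, 103 and 854 CPM in Lepr+ libraries, against 12.8, 10.5, 5.57, 20.1 and 18.5 CPM in Lepr- libraries. All 5 Lepr+ MPP libraries lay above all 5 Lepr- MPP libraries, whereas the HSC groups overlapped. Col1a1 (chr11:94936224-94953042, plus strand) was patchy. It had 624, 31, 831, 1 and 414 counts in Lepr+ HSC libraries 1 to 5, against 2, 8, 3050, 0 and 75 counts in Lepr- HSC. In the MPPs it had 1583, 1548, 671, 133 and 16264 counts in Lepr+ libraries, against 8, 37, 10, 0 and 119 counts in Lepr- libraries. Library 5 of Lepr+ MPP, at 1829 CPM, and library 3 of Lepr- HSC, at 112 CPM, held most of the Col1a1 of their groups, and the MPP groups did not overlap. The 8 bone-forming markers were uneven in these libraries. In Lepr+ MPP library 5 the osteocalcin genes Bglap and Bglap2 read 618 and 611 CPM, against at most 6.04 and 5.32 CPM in the other Lepr+ MPP libraries, and Alpl read 42.7 CPM, while Sp7 and Dmp1 were at 0. In Lepr- HSC library 3, Bglap and Bglap2 read 9.80 and 5.23 CPM, but Alpl, at 2.76 CPM, was below library 1, Sp7, at 0.774 CPM, was below library 4, Ibsp, Dmp1 and Phex were at 0, and the summed list, at 62.9 CPM, was below library 2. Of the 5 markers tested, 1 was called higher in Lepr+ MPP, where 0.176% of all genes tested were called higher. The summed level of the 8 bone-forming markers was 50.9 to 74.4 CPM in Lepr+ HSC, against 22.7 to 65.2 CPM in Lepr- HSC, and 111 to 1456 CPM in Lepr+ MPP, against 70.2 to 139 CPM in Lepr- MPP, and Runx2, which blood progenitors express too, read 21.4 to 136 CPM over all libraries. Their part in the type I values was not tested.

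Per kb of exon, the ratio of Col1a1 to Col1a2 was 0.00725 to 1.90 in Lepr+ HSC, 0 to 3.19 in Lepr- HSC, 0.267 to 4.05 in Lepr+ MPP and 0 to 0.877 in Lepr- MPP. Libraries with Col1a2 but next to no Col1a1 occurred in every group except Lepr+ MPP. The exons of Col1a2 in GENCODE M21 cover 12426 bases, against 5348 bases in its longest coding transcript, while those of Col1a1 cover 6563 and 5930 bases. With the transcript lengths, a choice made after seeing the data, the median ratio was 0.641 in Lepr+ HSC, 0.0328 in Lepr- HSC, 0.494 in Lepr+ MPP and 0.0510 in Lepr- MPP.

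**Figure D3:**
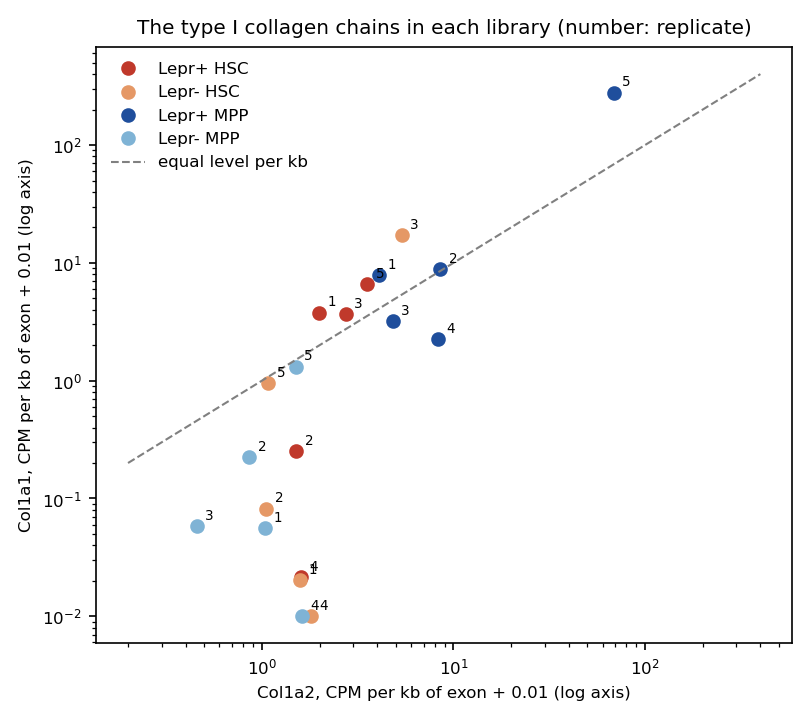
Col1a1 (y axis) against Col1a2 (x axis) in each library, in CPM per kb of exon plus 0.01 on log axes, with the replicate number beside each point and a dashed line at equal levels. Lepr+ MPP library 5 stands alone at the top right, and libraries of the other groups spread downwards at similar Col1a2 levels, to no Col1a1 count in library 4 of Lepr- HSC and of Lepr- MPP.

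The collagen genes that passed the test did so between the MPP groups. Of the 23 genes tested, 2 rose in Lepr+ MPP over Lepr- MPP, Col1a2 and Col3a1, and none fell, where 0.176% of all genes tested were called higher (29 of 16509). Col1a2 had a log2 fold change of 4.12 ± 0.75 (SE) and an edgeR adjusted p of 0.0339. Col3a1 had a log2 fold change of 9.89 ± 1.94 and an edgeR adjusted p of 0.0384. With the replicate block neither gene was called (0.0909% of all genes were called higher), at adjusted p of 0.0558 for Col1a2 and 0.0605 for Col3a1. Without Lepr+ MPP libraries 4 and 5 and Lepr+ HSC library 5 neither was called, nor was any of the 17935 genes then tested (0%). The log2 fold changes were 2.42 for Col1a2 and 10.2 for Col3a1, at edgeR adjusted p of 0.121 and 0.0565. DESeq2 called 8 genes higher, where it called 1.2% of all genes higher: Col1a2, Col3a1, Col5a2, Col6a1, Col6a2, Col6a3, Col8a1 and Col12a1. Without the same 3 libraries DESeq2 also called 8, with Col5a3 in place of Col5a2, where it called 0.493% of all genes higher. The single libraries whose omission ended both edgeR calls were Lepr+ MPP 2 and 5 and each of the 5 Lepr- MPP libraries. Those omissions left 4 to 11 of all genes called, against 33 with all 20 libraries. Without Lepr+ MPP 5 the log2 fold change of Col1a2 was 2.57.

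Col3a1 encodes type III collagen, which forms thin reticular fibrils with type I in soft tissue. It read 8.94, 76.0, 20.8, 0 and 37.6 CPM in Lepr+ MPP libraries 1 to 5, against 3 counts in all in Lepr- MPP, all of them in library 3. Library 4 had none, so the groups overlapped. The ratio of the summed counts was 1156, with an exact binomial 95% interval of 395 to 5610 that covers counting error only. Col3a1 lies on chromosome 1 (chr1:45311538-45349706, plus strand) and ends near the end of Col5a2 (chr1:45374321-45503282, minus strand), a chain of the fibril-nucleating type V collagen. Col5a2 had 4, 281, 116, 22 and 416 counts in Lepr+ MPP libraries 1 to 5 and none in Lepr- MPP, which is at least 293-fold higher on a floor of 3 counts for the group. Its partner Col5a1 was broader, at 12.5 ± 12.4 CPM in Lepr+ MPP, against 6.06 ± 5.79 CPM in Lepr- MPP (SD, n = 5 each), with a log2 fold change of 1.04 that did not pass. The patterns of these type V chains differed: Col5a1 had counts in all 5 Lepr- MPP libraries and Col5a2 in none.

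The windows before the starts of the called genes and of the FACIT gene Col16a1 are shown to set genes that differed between the MPP groups beside one that did not pass. Each is the 250 bases before the RefSeq start on the gene's own strand (GRCm38.p6), at chr6:4505368-4505617 for Col1a2, chr1:45311288-45311537 for Col3a1 and chr4:130047590-130047839 for Col16a1. Capitals mark 3 motifs: the CCAAT box, the box spelled TATAAA, and the core spelled GGGCGG. Both strands were searched, and no matches overlap.
Col1a2: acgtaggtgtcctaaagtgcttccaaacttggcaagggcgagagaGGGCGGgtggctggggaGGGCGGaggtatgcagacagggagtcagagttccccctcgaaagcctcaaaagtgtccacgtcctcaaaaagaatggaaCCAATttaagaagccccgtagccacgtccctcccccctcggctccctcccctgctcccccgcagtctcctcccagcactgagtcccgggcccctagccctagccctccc
Col3a1: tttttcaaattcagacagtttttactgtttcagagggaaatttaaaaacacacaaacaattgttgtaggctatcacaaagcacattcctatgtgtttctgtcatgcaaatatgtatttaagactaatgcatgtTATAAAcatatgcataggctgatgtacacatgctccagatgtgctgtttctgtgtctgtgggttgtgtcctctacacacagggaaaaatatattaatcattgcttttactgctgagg
Col16a1: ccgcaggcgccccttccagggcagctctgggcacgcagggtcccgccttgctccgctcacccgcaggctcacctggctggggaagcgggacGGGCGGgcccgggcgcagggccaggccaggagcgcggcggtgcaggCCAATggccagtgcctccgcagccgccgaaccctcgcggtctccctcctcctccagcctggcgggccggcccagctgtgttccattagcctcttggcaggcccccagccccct
The Col1a2 window holds CCAAT, the box bound by NF-Y, starting 109 bases before the start and GGGCGG, a core of Sp1 sites, at 205 and 188 bases. The Col16a1 window also holds both motifs, at 113 and 159 bases. Col3a1 has neither and a TATAAA at 117 bases. Among 32851 windows of this length, 33.8% hold the CCAAT box, 12.4% the box TATAAA and 32.7% the core GGGCGG, and among the 35 collagen genes with a window the numbers are 13, 5 and 21. A match describes letters only, and the windows of Col1a2 and Col16a1 share 2 of the 3 motifs.

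Type VI collagen, the beaded filament around cells, is built from Col6a1, Col6a2 and Col6a3 chains. Col6a1 read 0.946, 43.8, 30.9, 4.61 and 15.6 CPM in Lepr+ MPP libraries 1 to 5, against 15 counts in all in Lepr- MPP. Col6a2, its neighbour on chromosome 10, read 2.19, 9.71, 17.5, 27.6 and 23.4 CPM in Lepr+ MPP and had no count in Lepr- MPP, at least 471-fold higher. Col6a3 read 0.0652, 10.1, 4.22, 20.0 and 15.7 CPM in Lepr+ MPP, against 1 count in Lepr- MPP. The 3 chains were present together in all 5 Lepr+ MPP libraries, lowest in library 1, and no Lepr+ library overlapped a Lepr- library for any of them. Their edgeR adjusted p values were 0.131, 0.0778 and 0.0922 (0.157, 0.0525 and 0.186 with the block), so none was called. The other type VI chains, Col6a4, Col6a5 and Col6a6, had 3, 34 and 2 counts, each in a single Lepr+ MPP library.

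Col8a1, a short-chain collagen of vessel walls and of the cornea's basement membrane, read 1.34, 15.6, 12.5, 52.8 and 2.81 CPM in Lepr+ MPP libraries 1 to 5 and had no count in Lepr- MPP, at least 477-fold higher, with an edgeR adjusted p of 0.0787. Col12a1, a FACIT of type I fibrils under load, read 0.326, 7.01, 3.48, 1.43 and 11.5 CPM in Lepr+ MPP and had no count in Lepr- MPP, at least 148-fold higher, with an edgeR adjusted p of 0.0887. Library 4 was highest for Col8a1 and library 5 for Col12a1, so the order of the libraries differed from gene to gene. In all, 8 of the 23 genes tested had Lepr+ MPP libraries entirely above the Lepr- MPP libraries (Col1a1, Col1a2, Col5a2, Col6a1, Col6a2, Col6a3, Col8a1 and Col12a1), where 1.19% of all genes tested did. Without the 3 libraries that stand apart, Col3a1 and Col4a1 joined them, and 3.85% of all genes were separated. Leaving out libraries can only add to this count. 11 of the 23 were higher at an unadjusted p under 0.05, where 3.33% of all genes tested were. Without the 3 libraries 10 of 28 were, against 2.68% of all genes. The median log2 fold change of the 23 was 3.49, against 0.01 over all genes tested, with 22 above 0, and it ran from 2.60 (without Lepr+ MPP library 5) to 4.68 (without Lepr- MPP library 3) with single libraries left out. These counts describe the genes that passed and support nothing by themselves, because 9 of the 23 (Col2a1, Col3a1, Col5a2, Col6a1, Col6a2, Col6a3, Col8a1, Col11a1 and Col12a1) had at least as many libraries over the filter's level in Lepr+ MPP as in the other groups together.

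**Figure D4:**
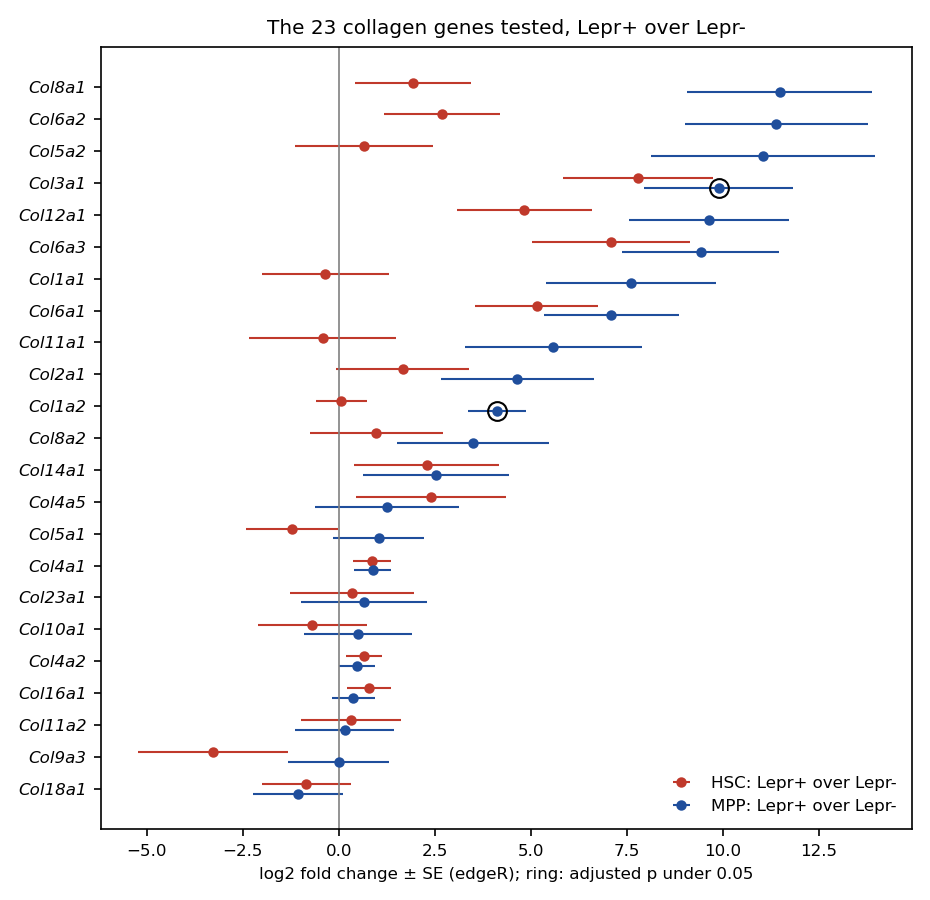
Log2 fold change of Lepr+ over Lepr- (x axis, edgeR, ± SE) for the 23 collagen genes tested (y axis, ordered by the MPP value) in HSC (red) and MPP (blue); rings mark adjusted p under 0.05. The rings stand on Col1a2 and Col3a1 in MPP, and Col4a1, Col4a2 and Col16a1 lie between 0 and 1 in both populations; fitted values of genes with no Lepr- count depend on the prior count.

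Markers of other marrow cells were read beside these genes. Of the 13 stromal markers tested, 4 were called higher in Lepr+ MPP than in Lepr- MPP and none lower, where 0.176% of all genes tested were called higher. The stromal list and its sum include Lepr, whose protein was used for the sort. The summed level of the 14 stromal markers was 37.2, 716, 762.2, 1109 and 637 CPM in Lepr+ MPP libraries 1 to 5, against 43.3 to 79.8 CPM in Lepr- MPP, so library 1 lay below every Lepr- MPP library. Pdgfrb, with 4280 counts in Lepr+ MPP, against 5052 counts in Lepr- MPP, made up much of the Lepr- sum. Cxcl12, the chemokine of the perivascular niche, read 8.64, 342, 394, 598 and 311 CPM in Lepr+ MPP, against 0.209 to 2.89 CPM in Lepr- MPP, and Adipoq read 1.24 to 39.1 CPM in Lepr+ MPP and 0 in all Lepr- MPP libraries. Library 1 of Lepr+ MPP, with the least Cxcl12, was also the lowest for Col1a2, Col2a1, Col5a2, Col6a1, Col6a2, Col6a3, Col8a1 and Col12a1. It had 51.6 CPM of Col1a1. Library 4, with the most Cxcl12, was the lowest for Col1a1, Col3a1, Col4a1, Col4a2, Col5a1, Col11a1, Col11a2 and Col16a1, with no Col3a1 count. 14 of 14 stromal markers had a count in Lepr+ HSC, 13 in Lepr- HSC, 14 in Lepr+ MPP and 10 in Lepr- MPP. Of the 12 vessel markers 4 were called higher in Lepr+ MPP and none lower, beside the same 0.176% of all genes. Their sum was 378 to 944 CPM in Lepr+ MPP, against 270 to 347 CPM in Lepr- MPP. However, Emcn, Egfl7, Tek, Tie1, Sox18 and Plvap overlapped between the groups, and Tie1 and Tek are expressed by the stem cells themselves. The smooth muscle and pericyte list summed to 6.23 to 75.8 CPM in Lepr+ MPP, against 0.0697 to 2.45 CPM in Lepr- MPP, mainly Kcnj8, Abcc9 and Notch3. Its muscle genes Myh11, Tagln and Acta2 stayed at or below 1.20 CPM in every library, and the cartilage gene Acan at or below 0.881 CPM in both MPP groups. The part of such cells in the collagen values was not tested.

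In HSC the same comparison called no collagen gene with edgeR, where 0.103% of all genes were called in either direction. 4 genes had an unadjusted p under 0.05, all higher in Lepr+ HSC, where 4.73% of all genes were: Col3a1, Col6a1, Col6a3 and Col12a1. DESeq2 called 2 of them, Col3a1 and Col6a1, at adjusted p of 0.0178 and 0.0271, where it called 0.964% of all genes higher. Without Lepr+ HSC library 5 and the 2 Lepr+ MPP libraries, 28 collagen genes were tested. The same 4 were higher at an edgeR unadjusted p under 0.05, where 5.1% of all genes were. Col28a1 and Col7a1, neither of which was tested with all 20 libraries, were lower at that level, where 3.47% of all genes were. DESeq2 then called Col3a1 alone, where it called 1.12% of all genes higher. Col3a1 read 10.6, 0.0514, 7.57, 0 and 0.631 CPM in Lepr+ HSC libraries 1 to 5, against a single count in Lepr- HSC, in library 5. Col6a1 read 19.0, 10.7, 4.21, 0 and 0.105 CPM in Lepr+ HSC, against 0.0338, 0, 0.737, 0 and 0.0824 CPM in Lepr- HSC. Col3a1 sat mainly in libraries 1 and 3 and Col6a1 in libraries 1, 2 and 3, while library 4 had none of either gene. Their log2 fold changes were 7.79 ± 1.95 and 5.16 ± 1.60 (SE), with edgeR adjusted p of 0.136 and 0.315. Col6a3 had 118 counts in Lepr+ HSC and none in Lepr- HSC, at least 37.6-fold higher, all in libraries 1 and 3, and those libraries also held nearly all Col2a1 and Col8a1 of Lepr+ HSC. Col1a1 and Col1a2 did not pass, with log2 fold changes of -0.35 and 0.06. The median log2 fold change over the 23 genes was 0.79, against -0.0041 over all genes tested. Stromal markers summed to 48.9, 108, 191, 18.8 and 99.7 CPM in Lepr+ HSC libraries 1 to 5, against 8.65 to 67.2 CPM in Lepr- HSC.

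**Figure D5:**
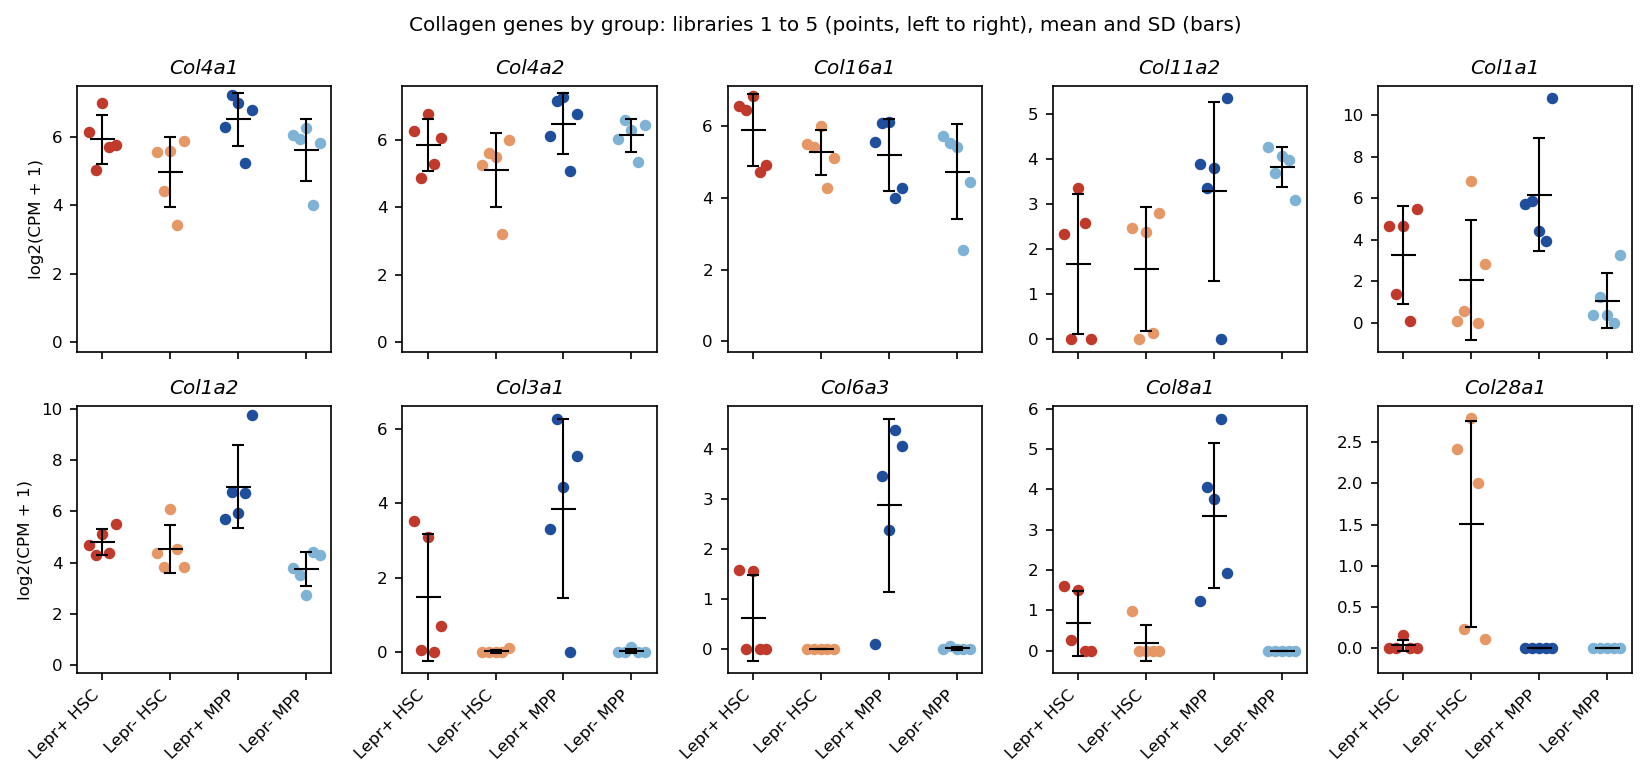
Level of 10 collagen genes as log2(CPM + 1) in each group; points are libraries 1 to 5 from left to right and bars give the mean and SD. Col4a1, Col4a2 and Col16a1 overlap across all groups, Col1a2 separates Lepr+ MPP from Lepr- MPP, Col3a1, Col6a3 and Col8a1 reach at most 0.979 CPM in both Lepr- groups, and Col28a1 has its signal in Lepr- HSC.

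The size of the Lepr difference was compared between populations with an interaction term. No collagen gene passed it with edgeR, nor did any of the 16509 genes (0%), with or without the block, and 5 collagen genes had an unadjusted p under 0.05 and a larger Lepr difference in MPP, where 1.66% of all genes did: Col1a1, Col1a2, Col5a2, Col6a2 and Col8a1. Col1a2 had the smallest p. Its Lepr difference was 4.06 ± 0.97 larger on the log2 scale in MPP than in HSC, with an adjusted p of 0.793 by edgeR and 0.0176 by DESeq2, which called 0.0828% of all genes in that direction. Both Lepr contrasts are therefore described side by side, and no gene is shown by edgeR to respond in only 1 of the populations.

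HSC and MPP were also compared within each Lepr class. Among Lepr- cells, edgeR called no collagen gene, where 2.73% of all genes were called. The 3 genes with an unadjusted p under 0.05 (6.22% of all genes were higher at that level), Col5a2, Col6a2 and Col8a1, each rested on 29 to 65 counts in Lepr- HSC and none in Lepr- MPP. Col11a2, a chain of the minor fibrillar type XI collagen, was the only one of the 23 genes tested whose groups did not overlap. It read 4.56, 0, 4.16, 0.0857 and 6.02 CPM in Lepr- HSC libraries 1 to 5, against 18.2, 12.02, 15.8, 14.8 and 7.58 CPM in Lepr- MPP, with a log2 fold change of -2.20 ± 1.36 and an edgeR adjusted p of 0.599. Across all genes tested, 3.43% were lower without overlap. Col18a1, whose protein releases the vessel inhibitor endostatin, had the opposite order. It read 13.7, 20.997, 26.8, 25.8 and 11.7 CPM in Lepr- HSC, while Lepr- MPP had 2.88, 4.21, 4.81, 12.5 and 0 CPM. Lepr- HSC was higher in 5 of 5 pairs, and the log2 fold change of 2.02 ± 1.19 did not pass (edgeR adjusted p of 0.564). Col11a1, the partner of Col11a2 in type XI collagen, reached at most 1.55 CPM outside Lepr+ MPP and 26.997 CPM in Lepr+ MPP library 5.

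Col28a1 had all but 4 of its counts in Lepr- HSC. It encodes type XXVIII collagen, a small chain with von Willebrand factor domains that is known from the sheaths of peripheral nerves. It had 128, 3, 161, 35 and 1 counts in Lepr- HSC libraries 1 to 5, against none in any Lepr- MPP library, at least 126-fold higher. Lepr+ HSC had 4 counts, all in library 3, and Lepr+ MPP had none. The gene fell short of the filter with 332 counts in all. Without the filter edgeR called it higher in Lepr- HSC than in Lepr- MPP, where it called 360 genes in either direction. DESeq2 called it at an adjusted p of 0.00217, where it called 2.28% of all genes higher. The filtered edgeR fit without the 3 libraries that stand apart also called it, where 2.05% of all genes were called higher. That call adds no support, because the gene then passed the filter through its Lepr- HSC libraries alone. In Lepr+ HSC it was lower than in Lepr- HSC in 5 of 5 pairs, with a DESeq2 adjusted p of 0.0819. The part of other cell types in the Col28a1 counts was not tested.

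Among Lepr+ cells, edgeR called no collagen gene between HSC and MPP, where 0.466% of all genes were called. 9 genes had an unadjusted p under 0.05, all lower in Lepr+ HSC, where 3.76% of all genes were lower. Col1a2 was the closest to the threshold: its Lepr+ HSC libraries all lay below its Lepr+ MPP libraries, at 28.2 ± 10.7 CPM in Lepr+ HSC, while Lepr+ MPP had 235 ± 347 CPM (SD, n = 5 each). The log2 fold change was -3.06 ± 0.71, with an adjusted p of 0.0630 by edgeR and 0.000787 by DESeq2. DESeq2 called 0.955% of all genes lower, and 1.02% of all genes tested were lower without overlap. Without Lepr+ MPP library 1 it was called (adjusted p of 0.0435 by edgeR), and without Lepr+ MPP library 5 the log2 fold change was -1.503. Col16a1 had the opposite order, at 69.8 ± 40.1 CPM in Lepr+ HSC, while Lepr+ MPP had 42.8 ± 25.5 CPM (SD, n = 5 each), and was higher in Lepr+ HSC in 5 of 5 pairs without passing (edgeR adjusted p of 0.931). The 2 Lepr+ against Lepr- contrasts and the 2 HSC against MPP contrasts share libraries, so their values are not independent of each other.

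The 21 genes that were not tested had 1 to 384 counts each over the 20 libraries. Of the genes tested but not yet named, Col14a1, Col10a1, Col8a2, Col23a1 and Col9a3 had 404, 326, 262, 218 and 124 counts in all, and none passed in any contrast. Col5a3, another type V chain, had 355 of its 384 counts in Lepr+ MPP, nearly all in libraries 2 and 3, and none in Lepr- MPP. The type IX chains Col9a1 and Col9a2, which cover cartilage fibrils, had 55 and 82 counts, and Col22a1, known from tissue junctions, had 94, of which 65 fell in Lepr+ MPP library 5. That library also held 15.4 CPM of Col2a1, the main cartilage collagen, and 26.997 CPM of Col11a1. Of the cartilage markers there, Chad, Matn3, Sox9, Hapln1 and Snorc read 13.4, 4.72, 1.24, 0.450 and 0.225 CPM, and Acan and Matn1 were at 0. Col7a1, the anchoring fibril of skin, had 84 counts over 7 libraries. Col17a1 had 71 counts in 2 libraries, and Col19a1, Col20a1, Col25a1 and Col15a1 had 40, 105, 45 and 37 counts. Col24a1, Col26a1, Col27a1 and Col13a1 had 5, 23, 17 and 1 counts. At these depths a level of 0 allows up to 3 counts per group, so expression under that floor was not detectable.

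The genes that build, read and cut collagen were examined beside the chains. Of the 32 assembly genes, 26 were tested, and 1 rose in Lepr+ MPP over Lepr- MPP, beside 0.176% of all genes tested. Serpinh1, the chaperone HSP47 that is dedicated to collagen folding, read 8.12, 25.4, 20.4, 142 and 86.7 CPM in Lepr+ MPP libraries 1 to 5, against 4.65, 4.85, 1.95, 4.74 and 3.61 CPM in Lepr- MPP. The groups did not overlap, and the log2 fold change was 3.83 ± 0.65 with an edgeR adjusted p of 0.0252, or 0.0510 with the block. Without the 3 libraries that stand apart it was not called, with a log2 fold change of 2.18 and an edgeR adjusted p of 0.148. None of the 17935 genes then tested was called between the MPP groups. With single libraries left out the edgeR adjusted p ran from 0.00359 to 0.126. It was over the threshold without Lepr+ MPP 4 or 5 or any Lepr- MPP library. Adamts2, which trims the ends of fibrillar procollagens, had 1051 counts in Lepr+ MPP and none in Lepr- MPP and did not pass. P4hb, the protein disulphide isomerase that serves collagen prolyl hydroxylase and many other proteins, read 471 to 835 CPM in all 20 libraries. In the HSC comparison none of the 26 was called, and Serpinh1 was higher in Lepr+ HSC in 5 of 5 pairs without passing (edgeR adjusted p of 0.661). Between Lepr- HSC and Lepr- MPP, 1 of the 26 was called, where 2.73% of all genes were. P4ha1, a catalytic subunit of collagen prolyl hydroxylase, was lower in Lepr- HSC at 23.7 ± 5.63 CPM, against 50.4 ± 8.01 CPM in Lepr- MPP (SD, n = 5 each). The edgeR adjusted p of P4ha1 was 0.0283, and 0.00805 with the block. With single libraries left out its adjusted p ran from 0.0267 to 0.0940, over the threshold without Lepr- HSC 2, 4 or 5 or Lepr- MPP 1, 3 or 5.

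Of the 8 genes for proteoglycans and fibril-associated proteins, 7 were tested and 2 rose in Lepr+ MPP over Lepr- MPP, beside the same 0.176% of all genes. Dcn (decorin), which coats type I fibrils, read 3.36, 22.0, 9.69, 0.220 and 79.5 CPM in Lepr+ MPP libraries 1 to 5, against 1 count in Lepr- MPP, with an edgeR adjusted p of 0.0384 and 0.0294 with the block. Sparc (osteonectin), a collagen-binding protein of bone, read 50.7, 218, 128, 300 and 937 CPM in Lepr+ MPP, against 1.44, 11.8, 2.26, 5.16 and 1.44 CPM in Lepr- MPP, with an edgeR adjusted p of 0.0463 and 0.0850 with the block. Library 5 of Lepr+ MPP, the richest in type I collagen, was the highest for both. Without the 3 libraries that stand apart neither was called, at edgeR adjusted p of 0.0881 for Dcn and 0.275 for Sparc. None of the 17935 genes then tested was called between the MPP groups. With single libraries left out the adjusted p reached 0.172 for Dcn and 0.177 for Sparc, and the omissions that kept the calls were Lepr+ MPP 1 for both and Lepr+ MPP 4 for Dcn. None of the 7 was called in HSC.

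Collagen receptors did not pass without the block, and a protease and a protease inhibitor differed between Lepr- HSC and Lepr- MPP. Of 11 receptor genes 8 were tested, and none was called in any contrast without the block. Adgrg1 (GPR56), a receptor for type III collagen, read 2159 to 3927 CPM over all 20 libraries, with a log2 fold change of 0.20 ± 0.19 between Lepr+ HSC and Lepr- HSC. Gp6, the collagen receptor of platelets, read 1.504, 0, 8.65, 2.28 and 53.3 CPM in Lepr+ HSC libraries 1 to 5 and 0 in all Lepr- HSC libraries. Most of it lay in library 5, which stands apart. The 6 megakaryocyte markers had the opposite order, summing to 503 to 1733 CPM in Lepr+ HSC, against 1871 to 4760 CPM in Lepr- HSC. Among them Ppbp had more counts in Lepr+ HSC (7285, against 1878 in Lepr- HSC). None of the 5 tested was called. Of 11 breakdown genes 7 were tested, and none was called in either Lepr contrast, although with the block Timp2, an inhibitor of metalloproteinases, rose in Lepr+ HSC (105 ± 30.04 CPM, against 58.7 ± 14.2 CPM in Lepr- HSC, SD, n = 5 each; edgeR adjusted p of 0.0394 with the block, where 0.763% of all genes were called higher, and 0.173 without). Between Lepr- HSC and Lepr- MPP, Timp3 was higher in Lepr- HSC at 71.3 ± 18.7 CPM, against 8.42 ± 3.84 CPM in Lepr- MPP, with a log2 fold change of 3.08 ± 0.48 and an edgeR adjusted p of 0.000883. Mmp2, the gelatinase that also cuts type IV collagen, was lower in Lepr- HSC at 2.68 ± 2.42 CPM, against 42.8 ± 18.8 CPM in Lepr- MPP, with a log2 fold change of -3.96 ± 0.74 and an edgeR adjusted p of 0.00418. The libraries of these groups did not overlap for either gene. Among all genes tested, edgeR called 2.73% between these groups, and 2.79% were higher and 3.43% lower without overlap. With the block, Timp2 and the collagen uptake receptor Mrc2 were also lower in Lepr- HSC, at edgeR adjusted p of 0.0438 and 0.0396, where 3.43% of all genes were called lower with the block.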

How the data were processed

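RNA was measured in 20 bulk libraries (4 groups of 5), each from 1000 to 8000 sorted cells. Per the labels' protocols, cDNA was made with a non-stranded SMART-Seq v4 kit. The authors deposited whole-number read counts per Ensembl gene. The submitters' processing notes list STAR 2.7.1a and HTSeq 0.11.2 with GRCm38, beside cutadapt 2.1, FastQC 0.11.8 and DESeq2. The counting mode and annotation release are not stated there. Rows that name no gene held 21.4% to 38.7% of the read pairs and were left out. Identifiers were matched to GENCODE M21.

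Genes were kept with filterByExpr (minimum count 10, minimum total 15) and fitted in edgeR 4.0.16 (R 4.3.3) with TMM scaling and the robust quasi-likelihood test, group as the only term, over all 20 libraries. P-values were adjusted by Benjamini-Hochberg over the 16509 genes kept, with a threshold of 0.05. SE is the log2 fold change divided by the root of F. The scripts were tested on simulated data. Alternatives were the replicate number as a block, DESeq2 size factors, no filter, DESeq2 1.42.0, leaving out each library, leaving out 3 libraries that stand apart (with edgeR and, chosen after seeing the data, with DESeq2), and the June or July libraries alone, after the date in the file names. Intervals of count ratios are exact binomial 95% intervals, and they and the floor of 3 counts cover counting error only.

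Each replicate number stands for the same mice in all groups, so the numbers pair the libraries. Deviations from the group means had a median correlation of 0.366 for the 30 pairs of the same number and -0.144 for the 120 pairs of different numbers, and number 2 stood lowest at -0.0174. The members and lists were chosen with earlier results of these data known. Named with values were genes called with or without the block, the 10 collagen genes with the smallest p in each Lepr contrast and the 5 in each HSC against MPP contrast, the 5 highest per kb in each group, partners in a trimer or locus, and from each companion list the genes called and up to 4 with the smallest p. Other genes were named to account for every collagen gene. Col28a1 was singled out after its values were seen. Some marker genes are not reported here.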

Additional observations from a re-analysis of the deposited data

Results flagged for a closer look

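Within each group of 5 libraries, a value was picked out where its gap to the nearest other value exceeded 0.71 of the range (Dixon's 95% critical value). Over 61 groups of values of 16 genes and the collagen sum, 22 were picked out. Chance gives about 1 in 20 for normally distributed values, which sparse counts are not. In 7 of the 22 the other 4 libraries were at 0, so that any count would have been picked out. Of all 22, 5 lay in Lepr- HSC library 3 and 4 in Lepr+ MPP library 5.

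In Lepr+ MPP library 5 the collagen sum was 3221 CPM, against 312 to 738 CPM in the other 4 libraries, with 1829 CPM of Col1a1, 854 CPM of Col1a2 and 46.8 CPM of Col5a2. Lepr+ MPP library 4 stood out for Col8a1, at 52.8 CPM. In Lepr+ HSC, library 1 stood out for Col12a1 at 2.14 CPM, and library 3 for Col5a2 at 3.19 CPM and Col28a1 at 0.116 CPM.

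Lepr- HSC library 3 had 112 CPM of Col1a1, 66.7 CPM of Col1a2, 14.99 CPM of Col5a1, 2.39 CPM of Col5a2 and 0.737 CPM of Col6a1. Library 1 of that group had 1.42 CPM of Col6a2 and 0.979 CPM of Col8a1, library 2 had 0.0590 CPM of Col12a1, and library 5 had 0.0824 CPM of Col3a1. In Lepr- MPP, the collagen sum of library 4 was low at 112 CPM, against 217 to 234 CPM in the others. Library 5 of Lepr- MPP was high for Col1a1 at 8.59 CPM and Col5a1 at 16.0 CPM, library 3 had 0.0944 CPM of Col3a1, and library 2 had 0.0379 CPM of Col6a3. Values under 0.1 CPM rest on 1 to 3 counts.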

How the results depend on the processing

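Between Lepr+ MPP and Lepr- MPP, 2 collagen genes were called, where 33 of all genes were. With the replicate block 0 were called, where 17 of all genes were. DESeq2 called 8, and 8 without the 3 libraries that stand apart (a choice made after seeing the data). Without those 3 libraries edgeR called 0, as in the June or the July libraries alone, and 0 of all genes each time. With each library left out it called 0 to 3 collagen genes and 4 to 49 of all genes. Between Lepr+ HSC and Lepr- HSC, 0 were called, 2 with DESeq2 and 1 with DESeq2 without the 3 libraries. Between Lepr- HSC and Lepr- MPP, 0 were called, and 1 with no filter, 1 with DESeq2, and 1 without the 3 libraries by either tool. Between Lepr+ HSC and Lepr+ MPP, 0 were called, 1 with DESeq2 and 0 to 1 with each library left out. The interaction gave 0 and 1 with DESeq2. The replicate block changed no other call of a collagen gene. For single genes, none of them called, the log2 fold change changed sign for Col12a1 between the HSC groups in the July libraries (-2.42), for Col9a3 between the HSC groups without Lepr- HSC library 1 (1.22; -4.47 to 1.22 with each library left out), and for Col1a1 between Lepr- HSC and Lepr- MPP in the July libraries (-1.53) and without Lepr- HSC library 3 (-0.35; -0.35 to 5.47 with each library left out). The causes were not tested. Of 408 gene values with a library left out, 359 kept direction and side of the threshold, 45 lost a call, 2 gained a call and 2 changed sign. Under the other alternatives 256 of 305 were kept, 24 lost a call, 23 gained a call and 2 changed sign. Most of these genes were not called in the main fit, and for them staying uncalled counted as kept. The kept values therefore do not measure how stable the calls are. Where neither group kept a count, no value was given. The July libraries leave 2 per group. Genes with a handful of counts in 1 group have fitted folds that depend on the prior count.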
